A study of Drosophila melanogaster with 3 samples.

Results

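YL-1 was mapped at 10 Drosophila growth control genes: Myc, Max and Mnt of the Myc network, and Tor, raptor, rictor, S6k, Thor, gig and Tsc1 of the TOR pathway. The genes were taken from a list of names, drawn up with earlier results of these data known, and all 10 were found among the 13945 protein-coding genes annotated on the 6 chromosome arms. Tor is annotated as mTor. Of the 10, 5 carried a reproducible YL-1 peak at an annotated transcription start site (TSS): S6k, Max, Thor, raptor and Tsc1. The other 5, Myc itself, Mnt, Tor, rictor and gig, did not.

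Myc is a basic helix-loop-helix leucine zipper transcription factor that drives cell growth, in large part through genes for ribosome production. It binds DNA as a dimer with Max, and Mnt competes for Max and represses transcription. Tor is a protein kinase that reads nutrient and insulin signals. It works in a complex with raptor, which controls translation and autophagy, and in another with rictor, which phosphorylates Akt. Tsc1 and gig, the fly Tsc2, form an inhibitor of the raptor-containing complex. S6k, the ribosomal protein S6 kinase, and Thor, the fly 4E-BP, which holds back the cap-binding protein eIF4E, are direct substrates of that complex. YL-1 belongs to the Domino/Tip60 family of chromatin complexes, which place the histone variant H2Av and acetylate histones. In mammals MYC is known to recruit complexes of this kind to its targets.

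The material was whole Drosophila melanogaster embryos of both sexes, pooled, aged 0 to 24 h, of a transgenic line with stable expression of YL-1 that carries GFP at its carboxy terminus. Chromatin was sonicated to 200 to 800 bp and precipitated, per the description in the labels, with an antibody against GFP. The antibody entry of the labels reads YL-1 instead, and which of these was used could not be settled from the files. The labels gave 3 biological replicates of this 1 group and no control group, so no conditions were compared and no test was made. In whole embryos, more cells with YL-1 at a site and more YL-1 per cell cannot be told apart. The labels do not say whether the line also carries untagged YL-1.

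The authors' list of reproducible peaks, thresholded by the irreproducible discovery rate (IDR), held 5986 peaks with signals between 137 and 1369 and a median of 219. These were the strongest 5986 regions of the list made from the pooled libraries. The pooled list and the list of each replicate held 30000 regions and reached into background, so the strongest 5986 of each replicate were used and are called top regions here. The signal is the authors' own value for each region, and its scale differed between replicates, with top-region medians of 65.1, 62.4 and 104. Replicates were therefore set side by side by rank or by signal divided by that median. No read counts were in the lists used here, so the depth is unknown.

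A gene was called bound where the summit of an IDR peak lay within 250 bp of any of its TSSs. By this rule 5 of the 10 genes were bound, beside 33.4% of all protein-coding genes. The same 5 had a top-region summit within 250 bp in each of the 3 replicates, beside 23.9% of all protein-coding genes. Of all 4655 bound genes, 71.3% did so. The IDR peaks came from the same 3 libraries, so this is not independent support for the calls. In replicate 1 alone 7 of the 10 met the rule, the 5 plus Mnt and gig, beside 32.8% of all protein-coding genes. In replicate 2 it was the 5, beside 31.3%, and in replicate 3 again the 5, beside 32.3%. When every region of the pooled list was admitted, background included, 9 of the 10 had a summit within 250 bp, all but Tor, beside 52.2% of all protein-coding genes. With 10 genes, each gene moves the share by 10%, and nothing particular to the set can be read from these counts.

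The 5 bound genes had a median signal of 296 at their strongest promoter peak, beside 252 over all 4655 bound genes. Their summits lay a median of 29 bp from the nearest TSS, beside 68 bp over all bound genes. Of the 5 strongest summits, 2 were upstream and 3 downstream of the nearest TSS, while 60.5% of all bound genes had theirs upstream. At 4 of the 5 a further annotated gene had its own TSS within 250 bp of the summit, and at 3 of these it was protein-coding. Over all bound genes, 42.9% shared the summit with another protein-coding gene. Thor was the exception, with no other gene at its summit.

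**Figure D1:**
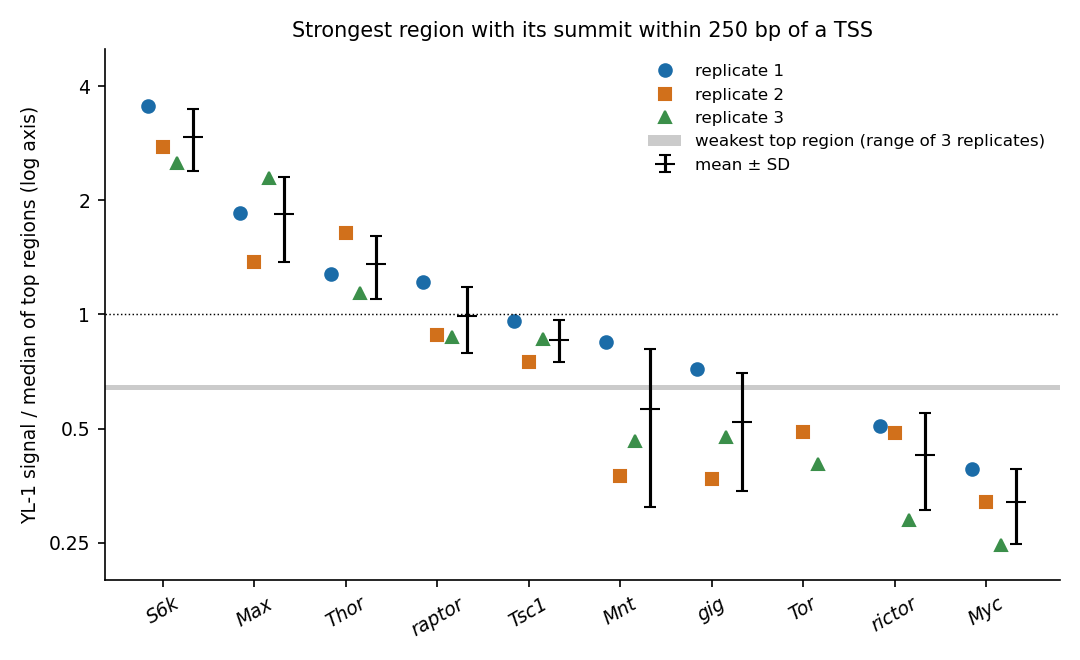
YL-1 signal at the promoters of the 10 genes in each of 3 replicates, as the strongest region with its summit within 250 bp of a TSS divided by the median of the top regions of that replicate (log axis), with mean ± SD where all 3 replicates had a region. S6k stands above the other genes in every replicate, the 5 genes from S6k to Tsc1 lie above the weakest top region (grey band) in every replicate, and Myc and rictor lie below it in every replicate. At Mnt the region of replicate 2 is at another TSS than those of replicates 1 and 3. The SD of Mnt is thus not a spread at a single promoter.

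Ordered by the mean over replicates, the ratio to the top-region median was 2.94 ± 0.545 at S6k, 1.84 ± 0.460 at Max, 1.35 ± 0.259 at Thor, 0.989 ± 0.195 at raptor and 0.857 ± 0.107 at Tsc1 (SD, n = 3 each). The lowest S6k replicate, at 2.50, was above the highest Max replicate, at 2.29. Max and Thor, Thor and raptor, and raptor and Tsc1 overlapped in their replicate ranges, so neighbours in this order below S6k did not differ beyond their spread. Among all 4655 bound genes the middle 50% had IDR signals between 0.871 and 1.55 times the list median, and 5% lay above 2.47 times. On that scale S6k, at 2.99 times, was above the 95% point, Max, at 1.98 times, was above the middle range, Thor and raptor were inside it, and Tsc1, at 0.854 times, was just below it.

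Myc spans chrX:3373159-3391697 in the dm6 build, 18539 bp on the plus strand with 1 annotated TSS (FBgn0262656). No IDR summit lay in the gene, and the nearest was 15271 bp upstream of its TSS. Regions near the Myc TSS were present in the pooled list and in each replicate list, but they were weak. Replicate 1 had a signal of 25.5 at 27 bp downstream (rank 11403 of 30000), replicate 2 had 20.0 at 32 bp (rank 15917) and replicate 3 had 25.6 at 60 bp (rank 19711). All 3 were at 0.247 to 0.391 of the median of the top regions, and none was within the strongest 5986. The pooled list held 12 regions along the gene, the strongest of which lay in an intron 8758 bp downstream of the TSS with a signal of 78.2 (rank 11264), and 0 of them reached the IDR threshold.

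The bases upstream of the Myc TSS, to 10 bases past it, are shown as the promoter of the gene that gives the network its name and that had no reproducible peak. They are chrX:3372959-3373168 on the plus strand, with GAGAG, the core letters of GAGA elements, in capitals.
Myc: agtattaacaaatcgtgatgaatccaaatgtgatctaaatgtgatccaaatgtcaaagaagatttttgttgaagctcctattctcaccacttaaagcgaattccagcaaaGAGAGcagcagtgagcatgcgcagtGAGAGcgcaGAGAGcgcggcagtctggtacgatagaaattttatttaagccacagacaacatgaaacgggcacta
The GAGAG matches begin at positions -90, -65 and -56, counted from 0 at the TSS. Overlapping matches are merged in the capitals of all sequences shown. Of all protein-coding promoters, taken as 250 bases before to 50 after the most upstream TSS, 29.7% hold GAGAG on either strand, and among the 10 genes Myc, Mnt and Thor do.

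Max, the dimer partner of Myc, is a short gene of 1953 bp at chr3L:19262232-19264184 on the minus strand (FBgn0017578). Its promoter peak had an IDR signal of 434 (rank 461 of 5986), and the summit lay 143 bp upstream of its TSS. The signal was 120.2 in replicate 1 (rank 606), 85.6 in replicate 2 (rank 1411) and 237 in replicate 3 (rank 272). The 3 replicates placed the summit at 37, 90 and 155 bp upstream, a wider scatter than at S6k. Mettl5, which encodes a methyltransferase of ribosomal RNA, and CG42374 lie on the opposite strand and share a TSS 220 bp upstream of that of Max. The IDR summit lay 77 bp from that TSS, nearer to it than to the TSS of Max. The peak was thus between these divergent starts, and the lists do not assign it to 1 of the genes. Mettl5 and CG42374 are also annotated from position 19263766, inside Max, so both overlap it and have a further start there.

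The stretch between the IDR summit and the Max TSS, to 10 bases past the TSS, is shown because the replicate summits 1 and 2 fell within it (chr3L:19264175-19264326, minus strand). No letters are capitals, as none of the 6 motifs searched has a match in it.
Max: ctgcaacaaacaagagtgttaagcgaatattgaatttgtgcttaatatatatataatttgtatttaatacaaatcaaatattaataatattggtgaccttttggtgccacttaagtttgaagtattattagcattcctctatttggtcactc
The core of the promoter motif known as Motif 1, GGTCACAC, lay further upstream, at positions -223 to -216 from the Max TSS. Of all promoters 7.70% hold it on either strand, and of 301-base windows around IDR summits 10.8% do. Within the Max gene itself the pooled list held 0 regions. A weaker IDR peak with a signal of 164 (rank 4742) lay 645 bp past the 3′ end of the gene, 193 bp from the TSS of Bet1, which encodes a SNARE protein of vesicle transport.

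Mnt, which opposes Myc by pairing with Max, is the longest of the 10 genes, 29872 bp at chrX:3671801-3701672 on the plus strand, with 3 annotated TSSs (FBgn0023215). No IDR summit lay within 250 bp of any of them, but 3 lay in its introns, the closest of them 2974 bp from a TSS. The strongest was 6286 bp downstream of the most upstream TSS with an IDR signal of 234 (rank 2625). It was a top region in all 3 replicates, with signals of 56.0 (rank 3962), 66.7 (rank 2610) and 111 (rank 2609), or 1.00 ± 0.123 of the top-region median (SD, n = 3). The other intronic peaks had IDR signals of 190 and 186 and lay 2974 and 5152 bp downstream of the nearest TSS. Each of these was a top region in replicates 2 and 3 and not in replicate 1, where their ranks were 10024 and 6268.

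Mnt was the only gene of the 10 with an IDR summit in its body beyond 250 bp of its TSSs, beside 7.33% of all protein-coding genes. Its length, and the 26 pooled regions along it, stand beside that count, since the median protein-coding gene spans 2166 bp and the median of the 10 is 8924 bp. At its promoters the replicates differed. Replicate 1 had a top region 59 bp upstream of the most upstream TSS with a signal of 55.1 (rank 4059), while replicate 3 had 48.1 (rank 8633) at -107 bp. Replicate 2 had its nearest region 334 bp downstream of that TSS, outside the window, with 45.7 (rank 5078), and only 23.4 (rank 12828) at another Mnt TSS.

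The bases around the strongest intronic summit of Mnt are shown to set a peak away from any TSS beside the promoters. This set and that of raptor were chosen after their values were seen. They run from 75 bases before to 75 after the summit (chrX:3678012-3678162, plus strand), with TATAAA in capitals.
Mnt intron: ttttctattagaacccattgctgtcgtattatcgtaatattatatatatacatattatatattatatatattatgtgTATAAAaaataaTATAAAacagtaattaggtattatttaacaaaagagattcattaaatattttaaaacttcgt
The GC content of this stretch is 17.2%, beside a median of 38% for 300-base promoters. TATAAA is found in 45.8% of promoters and in 36.1% of windows around IDR summits.

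**Figure D2:**
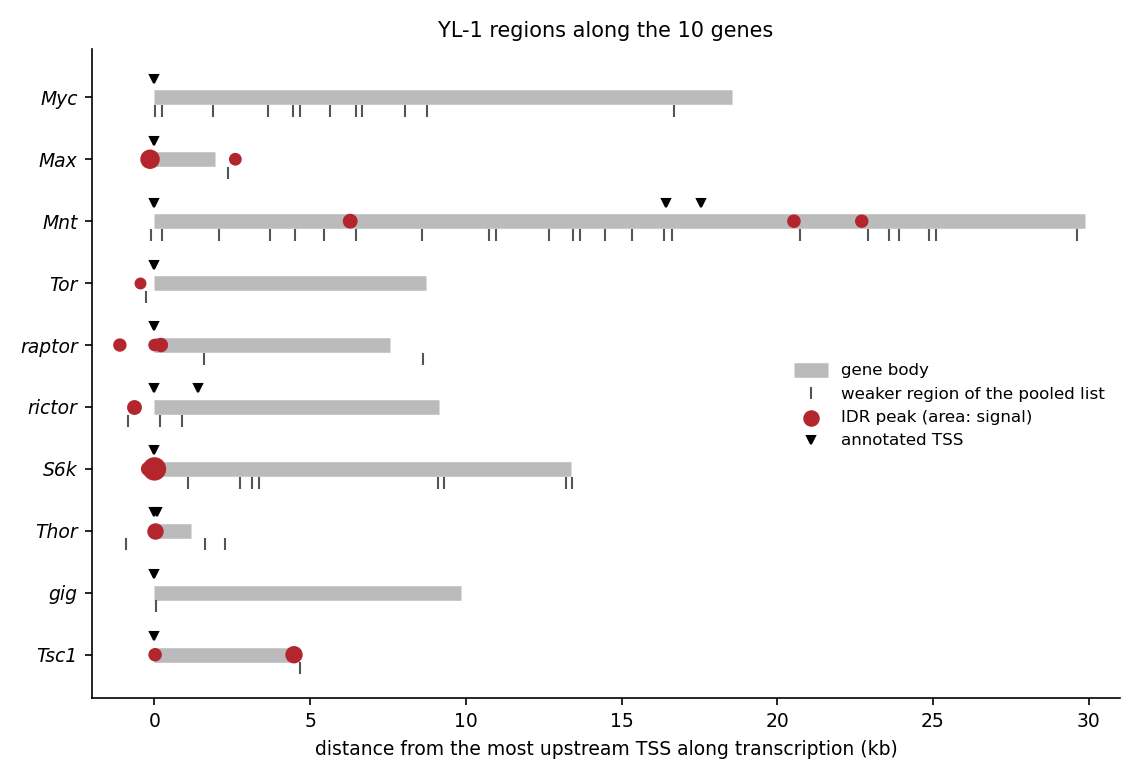
YL-1 regions along the 10 genes, drawn to scale as distance in kb from the most upstream TSS in the direction of transcription, with gene bodies as grey bars, IDR peaks as red points whose area follows the signal, and weaker regions of the pooled list as ticks below. Peaks of S6k, Max, Thor, raptor and Tsc1 sit at a TSS, the 3 IDR peaks of Mnt sit inside the gene, and Myc and gig show ticks only.

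Tor, the kinase itself, lies at chr2L:13004480-13013197 on the plus strand, 8718 bp with 1 TSS (FBgn0021796). The nearest IDR summit was 471 bp upstream, with a signal of 139 (rank 5903), close to the lowest of the list. That summit lay 98 bp inside the divergent neighbour Vha68-1, a catalytic subunit gene of the vacuolar ATPase, whose TSS is 373 bp from that of Tor. The overlapping regions had signals of 69.1 (rank 2676), 50.6 (rank 4318) and 49.5 (rank 8354) in the 3 replicates, a top region in replicates 1 and 2 and not in replicate 3. Within 250 bp of the Tor TSS replicate 1 had no region, replicate 2 had one of 30.6 (rank 8816) and replicate 3 one of 41.7 (rank 10294). Neither was a top region, and Tor was the only gene of the 10 with no pooled region within 250 bp. The 300-base promoter of Tor had the lowest GC content of the 10 genes, 27.3%.

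The scaffold gene raptor, whose product brings substrates to Tor, lies at chrX:6082634-6090201 on the minus strand, 7568 bp with 1 TSS (FBgn0029840). It had 2 overlapping IDR peaks in its 5′ UTR exon. The stronger had a signal of 219 (rank 2970) with its summit 205 bp downstream of the TSS, and the weaker had 159 (rank 4932) at 4 bp downstream. The replicate signals were 79.0 (rank 2035), 54.9 (rank 3782) and 90.2 (rank 3776), with summits at 109, 210 and 211 bp downstream. Replicates 2 and 3 thus placed their strongest summit close to that of the stronger IDR peak, and replicate 1 placed it between the pair. At the weaker summit, 4 bp downstream, replicates 2 and 3 had regions of 38.5 (rank 6462) and 47.6 (rank 8769), neither a top region. In replicate 1 the summit nearest the TSS was the one at 109 bp. An antisense RNA gene, asRNA:CR44959, starts on the opposite strand 118 bp from the stronger summit, and the lists have no strand. IDR peaks on the X had a median signal of 199, so the raptor value was 1.00 times the median of the whole list and 1.10 times that of its arm.

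The bases upstream of the raptor TSS, to 10 bases past it, are shown because they hold the only DRE of the 10 promoters (chrX:6090192-6090386, minus strand). The DRE, TATCGATA, is the element bound by the factor DREF, which is known for genes of growth and replication in flies. It is in capitals, at positions -79 to -72 from the TSS.
raptor: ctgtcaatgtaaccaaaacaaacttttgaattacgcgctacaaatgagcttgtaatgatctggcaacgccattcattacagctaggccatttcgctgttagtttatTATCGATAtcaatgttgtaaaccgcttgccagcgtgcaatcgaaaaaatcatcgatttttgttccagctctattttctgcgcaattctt
The DRE letters are in 9.36% of promoters and in 10.1% of windows around IDR summits. The near end of the DRE is 76 bases upstream of the weaker raptor summit. Another IDR peak, with a signal of 183 (rank 3994), lay 1112 bp upstream of raptor between the starts of Nep1, a neprilysin peptidase gene, and Mipp2, an inositol polyphosphate phosphatase gene. Mipp2 is on the same strand as raptor and spans chrX:6082709-6091471, so the raptor TSS and its 2 peaks also lie inside Mipp2.

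The partner of Tor in the other complex, rictor, lies at chrX:19252111-19261240 on the minus strand, 9130 bp with 2 TSSs (FBgn0031006). Its nearest IDR summit, with a signal of 236 (rank 2579), was 661 bp upstream. It lay 81 bp inside the divergent neighbour Vav. That region was a top region in all 3 replicates, with signals of 74.3, 76.5 and 93.4, or 1.09 ± 0.168 of the top-region median (SD, n = 3). Within 250 bp of the rictor TSSs the strongest regions had signals of 33.1 (rank 8191), 30.4 (rank 8898) and 29.7 (rank 16014) in the 3 replicates. All 3 were below the weakest top region, so that the neighbour and not rictor met the rule in every replicate.

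S6k, a kinase downstream of Tor, had the strongest YL-1 peak of the 10 genes. It spans chr3L:5797549-5810931 on the minus strand, 13383 bp with 1 TSS (FBgn0283472). The IDR signal was 653 (rank 101 of 5986), and the summit was 1 bp upstream of the TSS. The signal was 231 in replicate 1 (rank 41), 172 in replicate 2 (rank 109) and 259 in replicate 3 (rank 199). The replicate summits were 2, 48 and 25 bp downstream of the TSS. S6k was thus at rank 199 or better in each replicate and ranked 111 among the 4655 bound genes. The same 435-bp region held another IDR summit, 202 bp upstream, with a signal of 223 (rank 2888). The divergent gene kri starts 42 bp from the S6k TSS, and the main summit fell between both starts.

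The bases from the S6k TSS up to the start of kri, with 10 bases past the S6k TSS, are shown because the strongest summit of the 10 genes fell in them (chr3L:5810922-5810972, minus strand). None of the 6 motifs has a match in this stretch.
S6k: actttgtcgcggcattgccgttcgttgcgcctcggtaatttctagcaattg
The 300-base promoter of S6k had the highest GC content of the 10 genes, 55.0%, beside a median of 38% over all promoters. The pooled list held 7 further regions along the body of S6k, all below the IDR threshold, the strongest of them with a signal of 92.9 (rank 9233) in the 3′ UTR exon.

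Thor, the translation inhibitor that Tor phosphorylates, is the shortest of the 10 genes, 1179 bp at chr2L:3478434-3479612 on the plus strand with 2 TSSs, at positions 3478434 and 3478522 (FBgn0261560). Its IDR peak had a signal of 296 (rank 1501). The summit lay in the 5′ UTR exon, 29 bp downstream of the upstream TSS and 59 bp upstream of the other. The signal was 83.4 in replicate 1 (rank 1801), 102 in replicate 2 (rank 845) and 118 in replicate 3 (rank 2286). All 3 replicate summits fell between the starts, at positions 3478463, 3478436 and 3478485. The region was narrow, 134 bp at chr2L:3478401-3478534, where the most common width in the IDR list was 500 bp.

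The bases upstream of Thor, to 10 bases past the upstream TSS, are shown as the single-gene promoter of the 5, and as one with a TATA element and GAGA letters together (chr2L:3478234-3478443, plus strand). TATAAA and GAGAG are in capitals.
Thor: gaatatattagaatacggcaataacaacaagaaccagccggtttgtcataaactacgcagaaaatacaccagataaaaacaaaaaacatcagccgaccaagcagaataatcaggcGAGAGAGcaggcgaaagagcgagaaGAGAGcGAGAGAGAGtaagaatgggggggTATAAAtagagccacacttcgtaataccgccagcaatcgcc
TATAAA lies at positions -31 to -26 from the TSS, the usual place of a TATA box, and 6 GAGAG matches, some of them overlapping, start at positions -85 to -50. TATAAA was also found in the promoters of Mnt and rictor, on the opposite strand at positions -208 and -214. On the strand of the gene it was found in those of Tor, at position -167, and of gig, where it lies downstream of the TSS.

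Tsc1, an inhibitor of growth signalling through Tor, lies at chr3R:24130307-24134654 on the plus strand, 4348 bp with 1 TSS (FBgn0026317). Its IDR peak was the weakest of the 5, with a signal of 187 (rank 3890), and the summit was 20 bp downstream of the TSS. The signals were 62.7 (rank 3208), 46.7 (rank 4916) and 88.9 (rank 3860) in the 3 replicates, each a top region. The replicate summits were at 16 bp upstream, 73 bp downstream and 22 bp downstream. The divergent gene GatB, for a subunit of the mitochondrial glutamyl-tRNA amidotransferase, starts 52 bp away, and the summit was 72 bp from its TSS. A stronger IDR peak with a signal of 337 (rank 1069) lay 134 bp past the 3′ end of Tsc1, 43 bp from the TSS of Sec10, which encodes an exocyst subunit. The peak nearest the 3′ end of Tsc1 was thus at the start of the next gene, and it was the stronger of both in each replicate, at 121, 91.2 and 120.1.

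The partner of Tsc1, gig, lies at chr3L:20129181-20139010 on the plus strand, 9830 bp with 1 TSS (FBgn0005198). The nearest IDR summit was 24440 bp upstream of its TSS, the farthest of the 10 genes. The regions at its TSS had signals of 46.8 (rank 5211) in replicate 1, 23.0 (rank 13091) in replicate 2 and 49.3 (rank 8397) in replicate 3. Replicate 1 alone placed gig among its top regions. In the pooled list the region had a signal of 109.9 (rank 7689), below the 137 of the weakest IDR peak. Both members of the inhibitor complex thus had a region at their TSS in all 3 replicates, and that of Tsc1 alone was reproducible by the IDR threshold.

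In the gene bodies, TSSs included, 4 of the 10 genes held an IDR summit, beside 22.6% of all protein-coding genes: Mnt, raptor, Thor and Tsc1. The main summits of S6k and Max were upstream of the gene and are not in this count. Myc, Tor, rictor and gig had an IDR summit neither at a TSS nor in the body.

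Myc and its partner bind the E-box CACGTG. On either strand, 0 of the 10 promoters at the most upstream TSS held it, beside 4.20% of all promoters and 5.51% of 301-base windows around IDR summits. At other TSSs of the 10 genes it was found at 1 TSS of Mnt, at positions -153 to -148 from that TSS, and at 1 TSS of rictor, at positions -139 to -134, neither with a bound summit. The initiator letters TCAGT were in 3 of the 10 promoters, beside 51.5% of all promoters, and the Motif 1 core was in 2, Max and Mnt. A match here is a string of letters and not a measured site.

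The wider pathways were described by 5 further lists with 67 genes in all. Of these 67, 50 (74.6%) had an IDR summit within 250 bp of a TSS, beside 33.4% of all protein-coding genes, and 41 were bound in all 3 replicates, beside 23.9%. The median signal of the 50 was 274, beside 252 over all bound genes. The replicates called 50, 51 and 49 of the 67. The lists were drawn up with earlier results of these data known, so the counts describe these genes only.

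**Figure D3:**
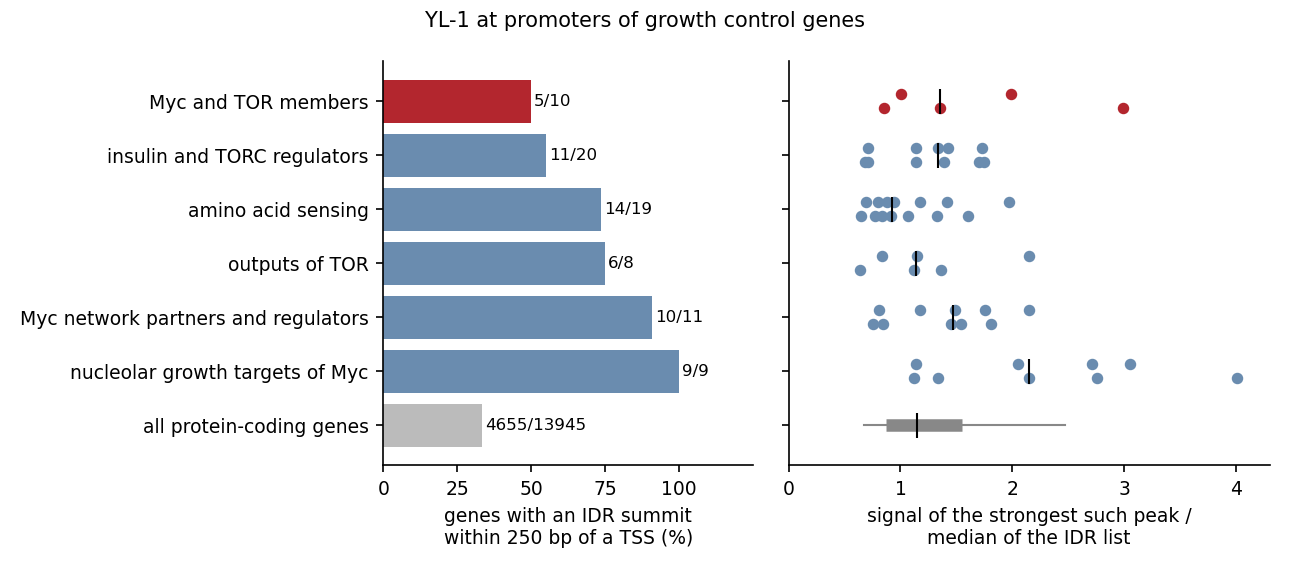
Left, the percentage of genes in each list with an IDR summit within 250 bp of a TSS, with counts beside the bars; right, the signal of the strongest such peak of each bound gene divided by the median of the IDR list, with a black line at the median of the list. The lower row gives all 13945 protein-coding genes, with a thick bar from the 25% to the 75% point and a thin line from the 5% to the 95% point of the bound ones; all 9 nucleolar genes were bound and hold the highest value among the genes drawn as points, at 4.01 (Ns1).

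The nucleolar growth genes, known targets of Myc that serve ribosome production, were bound in 9 of 9, each in all 3 replicates, with a median signal of 470.3. Ns1, a nucleostemin-family GTPase, had the highest signal of the list, 876 (rank 22), and its replicate ranks were 12, 31 and 42. Nop56, a core protein of box C/D snoRNPs, followed with 667 (rank 92), and Fib, the fibrillarin methyltransferase, with 603 (rank 141).

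Of the Myc network partners and regulators, 10 of 11 were bound, 8 of them in all 3 replicates, with a median signal of 321. The strongest was bigmax, the partner of Mondo in a parallel dimer, with 469 (rank 333). It was followed by pont, the Pontin ATPase, with 395 (rank 651) and hfp, a splicing regulator known to repress Myc transcription, with 383 (rank 708). Mondo was the unbound one, its nearest IDR summit 865 bp away. It had a top region within 250 bp of a TSS in replicate 1 (50.5, rank 4655) and in replicate 3 (70.2, rank 5423) but not in replicate 2 (21.3, rank 14613), so that replicates 1 and 3 each called 11 of the 11 genes and replicate 2 called 8. This list includes Tip60, pont, rept and Nipped-A, which encode subunits of the same chromatin complexes as YL-1, and without these 46 of 63 further genes (73.0%) were bound.

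Among the insulin and TOR complex regulators, 11 of 20 were bound, 9 in all 3 replicates, with a median signal of 291. The strongest were alc, a regulatory subunit gene of AMP-activated kinase, with 381 (rank 722), the kinase gene Lkb1, which acts above it, with 377 (rank 746), and Rheb, the GTPase that activates Tor, with 372 (rank 790). InR, the insulin receptor, was bound with a signal of 249, while Akt and foxo, the kinase and the factor below the receptor, were not bound, their nearest IDR summits 607 and 277 bp away. Sesn, a stress-induced inhibitor of Tor, was not bound, and its strongest regions within 250 bp of a TSS differed widely between replicates. It had 17.0 (rank 19564) in replicate 1, against 102 (rank 851) in replicate 2 and 234 (rank 289) in replicate 3. Its nearest IDR summit was 260 bp away, just outside the window. A replicate region with its summit past that edge is not in these values, so they need not show a difference in signal. InR, Akt, foxo and Sesn are named here after their values were seen.

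Among the genes of amino acid sensing, a list that holds activators and inhibitors of the raptor-containing complex and amino acid transporters, 14 of 19 were bound, 10 in all 3 replicates, with the lowest median signal of the 5 lists, 203. They were led by Lamtor3, a Ragulator subunit, with 431 (rank 468), Nup44A, the fly Seh1, with 349.9 (rank 950) and Wdr24 with 309.5 (rank 1326), the products of both of which are GATOR2 subunits. All 5 Lamtor genes were bound. Of the pair of Rag GTPase genes, RagC-D was bound with its summit 0 bp from the TSS and a signal of 256, and RagA-B was not, its nearest IDR summit 633 bp away.

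Of the outputs of Tor, 6 of 8 were bound, 5 in all 3 replicates, with a median signal of 248. REPTOR, a transcription factor that Tor keeps out of the nucleus, had 470.5 (rank 329), and its partner REPTOR-BP had 299 (rank 1475). RpS6, the substrate of S6k, had 251 (rank 2262). Mitf and Tif-IA, factors for lysosomal genes and for RNA polymerase I, were the 2 of the list that were not bound.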

How the data were processed

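The deposited files were lists of regions in narrowPeak format from ChIP-seq of YL-1-GFP in 3 replicates, in the dm6 and dm3 builds per the labels. The dm6 lists were used, 1 IDR thresholded, 1 pooled and 3 of replicates, and the dm3 lists were not used here. The signal of each region is the authors' deposited value, with a normalization not stated per the labels. The aligner and peak caller are not stated in any source used here, nor is the use of the control set that the labels name. Deposited summits were within 1 bp of the middle of 70.4% of the IDR regions and of 97.3% to 98.8% of replicate regions, so distances from replicate lists are coarse. No read counts are given, so depth is unknown and no interval was set.

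Summits were matched to every TSS and gene body of the Ensembl 115 annotation of Release 6, and all 77 symbols were found, 2 through synonyms. Sequence came from the RefSeq copy of Release 6 and was searched for 6 motifs on both strands. Positions are 1-based, and a region overlaps another at 1 bp or more. Ratios used the median signal of the strongest 5986 regions. With 1 group, counts were set beside those of all protein-coding genes and no test was made. The members and lists were chosen with earlier results of these data known. By rule the text names the 10 genes, the 3 strongest bound genes of each further list and genes sharing a promoter summit, and other genes were named after their values were seen. Printed sequences are of the 3 strongest genes and Myc by rule. Other windows, lists, summits and TSS choices were tried, and each replicate was left out in turn. The matching was checked on simulated data. Python 3.11.15, numpy 2.4.6, pandas 2.3.3 and matplotlib 3.10.9 were used.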

Additional observations from a re-analysis of the deposited data

How the results depend on the processing

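The count of bound members, 5 of 10, was 4 to 7 under the other windows, thresholds, TSS and summit choices (background 20.9% to 40.8%). It was 9 with every region of the pooled list (background 52.2%), which added Myc, Mnt, rictor and gig. A window of 100 bp lost Max, one of 500 bp added Tor, and one of 1000 bp added Tor and rictor. Without one replicate in turn the count of bound members was 5 to 6 (background 27.6% to 28.3%), and Mnt was added without replicate 3. The count with a summit in the gene body, 4, was 8 with the pooled list (background 51.7%) and 1 beyond 250 bp of the TSSs (background 7.33%). It was 6 where the peak interval rather than the summit overlapped the body (background 36.8%), which added Max and S6k. Without one replicate it was 4 to 5 (background 19.2% to 19.5%). The promoter and gene-body counts without one replicate used the summits of the first replicate kept, not IDR summits. S6k, whose replicate summits lie just inside the gene, was added whichever replicate was left out. Tsc1 was lost without replicate 2 and without replicate 3. In both, the summits were those of replicate 1, which at Tsc1 lay 16 bp upstream of the TSS, outside the gene. Top regions shared by all 3 replicates gave the same gain and loss. The count bound in all 3 replicates, 5, was 3 with a window of 100 bp (background 12.5%), which lost Max and raptor. It was 3 with the strongest 3000 regions (background 13.3%), which lost raptor and Tsc1. It was 5 whichever replicate was left out (background 26.4% to 27.3%). The causes were not tested. The further pathway count, 50 of 67, was 34 to 62 under the alternatives (background 20.9% to 52.2%), and 45 to 46 without one replicate (background 27.6% to 28.3%). Without one replicate the signal ratio was 2.63 to 3.16 at S6k, 1.61 to 2.07 at Max, 1.21 to 1.46 at Thor, 0.876 to 1.05 at raptor and 0.804 to 0.911 at Tsc1, and a window of 500 bp left all 5 ratios as they were. Of 30 recomputed distances 6 moved, 5 of them with the pooled list (32 bp at Myc, 70 bp at Mnt, 269 bp at Tor, 183 bp at rictor and 58 bp at gig) and 1 with the most upstream TSS only (6286 bp at Mnt). No paired analysis was possible because there is 1 group and no test. Unknown depth limits what the weak regions at Myc, Mnt, Tor, rictor and gig can show: no reproducible peak was detected at their TSSs, which is not absence of YL-1.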
